A study of Mus musculus with 7 samples.

Results

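The 51 genes described here encode the ligands, receptors and modulators of canonical Wnt signalling, with the β-catenin destruction complex, the TCF/LEF factors and the feedback targets. They were chosen by symbol from the 25461 genes of the deposited FPKM table (a measure of fragments relative to transcript length and library depth), and all 51 were found. They comprise 15 Wnt ligands, 10 Frizzled and LRP receptors, 3 R-spondins, 9 secreted antagonists, 4 genes of β-catenin and its destruction complex, 4 TCF/LEF factors and 6 feedback targets. Whole E11.5 mouse embryos of the B6C3F1 strain were sequenced, 3 SLMAP3 KO and 4 WT. The tail had been removed from every embryo for genotyping, so the tail tip was not sampled. KO embryos came from crosses of heterozygotes that no longer carried CMV-cre, in which exon 3 of Slmap had been deleted. The allele is inherited and so present in every tissue, and it abolishes the SLMAP3 isoform but not the shorter SLMAP isoforms. WT embryos carried no deleted allele. Each library was made from 1 embryo. The labels give no litter or dam, and the number after KOAC in the embryo names (8, 9 or 10) is not explained in them.

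In canonical Wnt signalling a secreted Wnt protein binds a Frizzled receptor together with LRP5 or LRP6. This stops the destruction complex of Axin, APC and GSK3 from marking β-catenin for breakdown, and β-catenin then acts with TCF/LEF factors at target genes, several of which feed back to dampen the signal. In the midgestation embryo the pathway is known for patterning the dorsal neural tube and the midbrain-hindbrain boundary, for limb outgrowth and for kidney induction.

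Slmap, the targeted gene, had levels of 19.6, 16.0 and 16.6 FPKM in KO embryos KOAC8-6, KOAC10-5 and KOAC10-8. It was at 31.2, 23.9, 29.1 and 22.8 FPKM in the WT embryos KOAC8-1, KOAC10-7, KOAC9-1 and KOAC10-2, and values per embryo follow this order throughout. Every KO value was below every WT value, and the KO mean was 65.1% of the WT mean (log2 fold change -0.59 ± 0.13 SE, adjusted p = 0.278). The depth relative to the average was 1.14, 1.06 and 1.08 in KO embryos and 0.89, 0.82, 1.21 and 0.81 in WT embryos. It was above the average in every KO embryo and, of the WT embryos, only in KOAC9-1. Liver transcripts were nearly absent from 1 KO embryo (KOAC10-5) and 2 WT embryos (KOAC10-7 and KOAC10-2), in which 6 liver markers summed to 4.59 to 9.96 FPKM, against 399 to 720 FPKM in the others.

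The members spanned nearly 3 orders of magnitude in level. Because FPKM is scaled to transcript length, levels can be set side by side between genes. Ctnnb1, which encodes β-catenin, was far above the others with a mean of 524 FPKM over the 7 embryos, followed by the antagonist Sfrp2 at 61.4 FPKM. A mean over 10 FPKM was found for 21 members, a mean of 1 to 10 FPKM for 26 and a mean under 1 FPKM for 4. Among the ligands, Wnt7b stood apart at 22.9 FPKM, well above the next, Wnt6 at 7.63 FPKM, and the other 13 ranged down to 0.656 FPKM for Wnt10a. The 10 receptors ranged from 1.36 FPKM for Fzd5, below most of the ligands, to 41.1 FPKM for Fzd2.

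**Figure D1:**
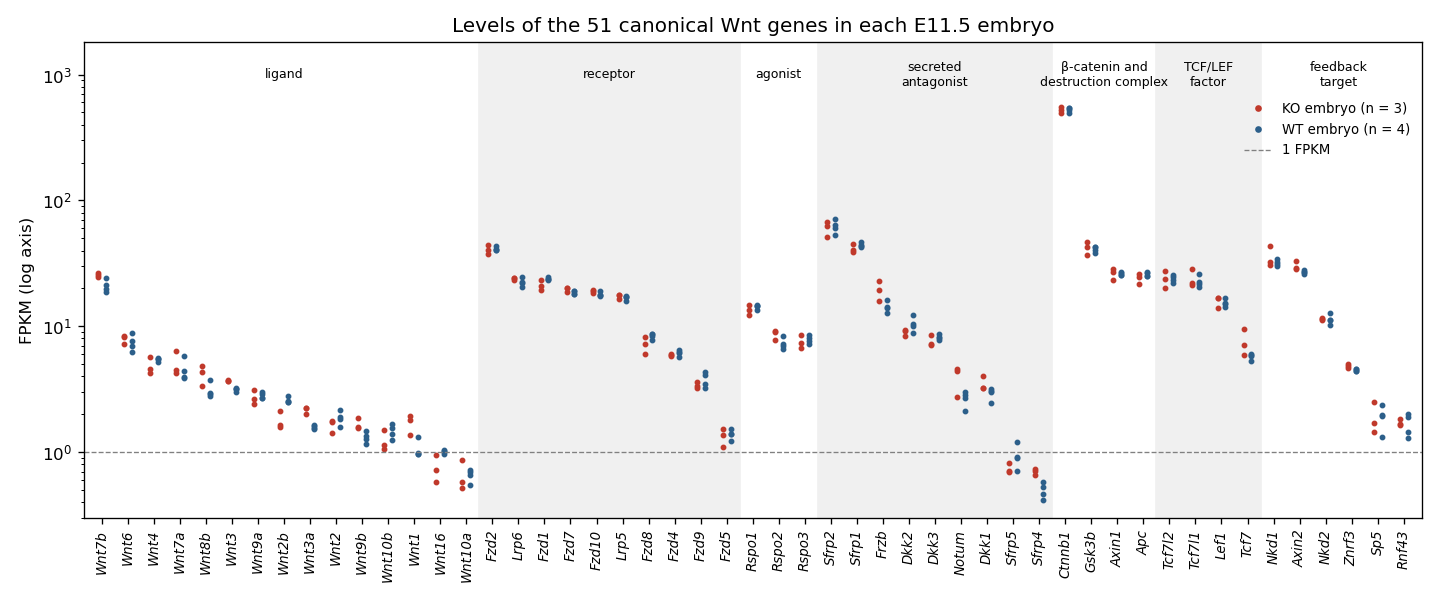
FPKM on a log axis of the 51 canonical Wnt genes, ordered by level within each role, with 1 point per embryo (red, 3 KO; blue, 4 WT) and a dashed line at 1 FPKM, the minimum mean for testing. Ctnnb1 lies near 524 FPKM, most ligands lie below 10 FPKM, and the 2 genotypes lie close together for most genes.

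The genotypes were compared by limma on log2(FPKM + 1) over all 16095 genes whose mean reached 1 FPKM, which included 47 of the 51 members. None of the 47 had an adjusted p under 0.05 (lowest 0.286, Benjamini-Hochberg over all genes tested), against 6 of all genes tested (0.0373%). At an unadjusted p under 0.05, 10 members were higher in KO embryos (21.3%), where 5.27% of all genes tested were. Only 1 member was lower by that measure (2.13%), against 6.19% of all genes tested. Every KO value was above every WT value for 8 members (17.0%), against 5.61% of all genes tested, and below for 1 (2.13%), against 5.98%. The median log2 fold change of the 47 was 0.03, beside 0.01 for all genes tested. With 1 embryo left out, 5 to 7 members were higher at an unadjusted p under 0.05. The number was 5 without KOAC10-8, KOAC8-1 or KOAC9-1 (3.31%, 4.92% and 3.61% of all genes tested), 6 without KOAC10-7 or KOAC10-2 (4.38% and 4.57%) and 7 without KOAC8-6 (4.13%). Without KOAC10-5, 6 members were higher and 4 lower, against 7.81% and 8.55% of all genes tested. With the KOAC number as a block, where KOAC9-1 is alone with its number and does not bear on the fold change, 6 were higher (4.04% of all genes tested), and Wnt3, Wnt9b, Rspo2, Notum and Axin2 then had unadjusted p of 0.0506, 0.108, 0.0588, 0.0970 and 0.108. Among the KOAC10 embryos alone, 2 KO and 2 WT, 0 were higher and 2 lower by that measure, against 2.35% and 2.55% of all genes tested. Over all 7 embryos, the members that were higher comprised 6 of 13 ligands, 1 of 3 R-spondins, 2 of 7 antagonists and 1 of 6 feedback targets, and none of the receptors, the destruction complex or the TCF/LEF factors. The half-width of the 95% interval of a member's log2 fold change had a median of 0.21 and ran from 0.12 to 0.40. Differences smaller than a member's half-width could not be resolved with these 7 embryos. The interval is not adjusted for the number of genes. Members whose interval left out 0 still had an adjusted p of 0.286 or more.

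**Figure D2:**
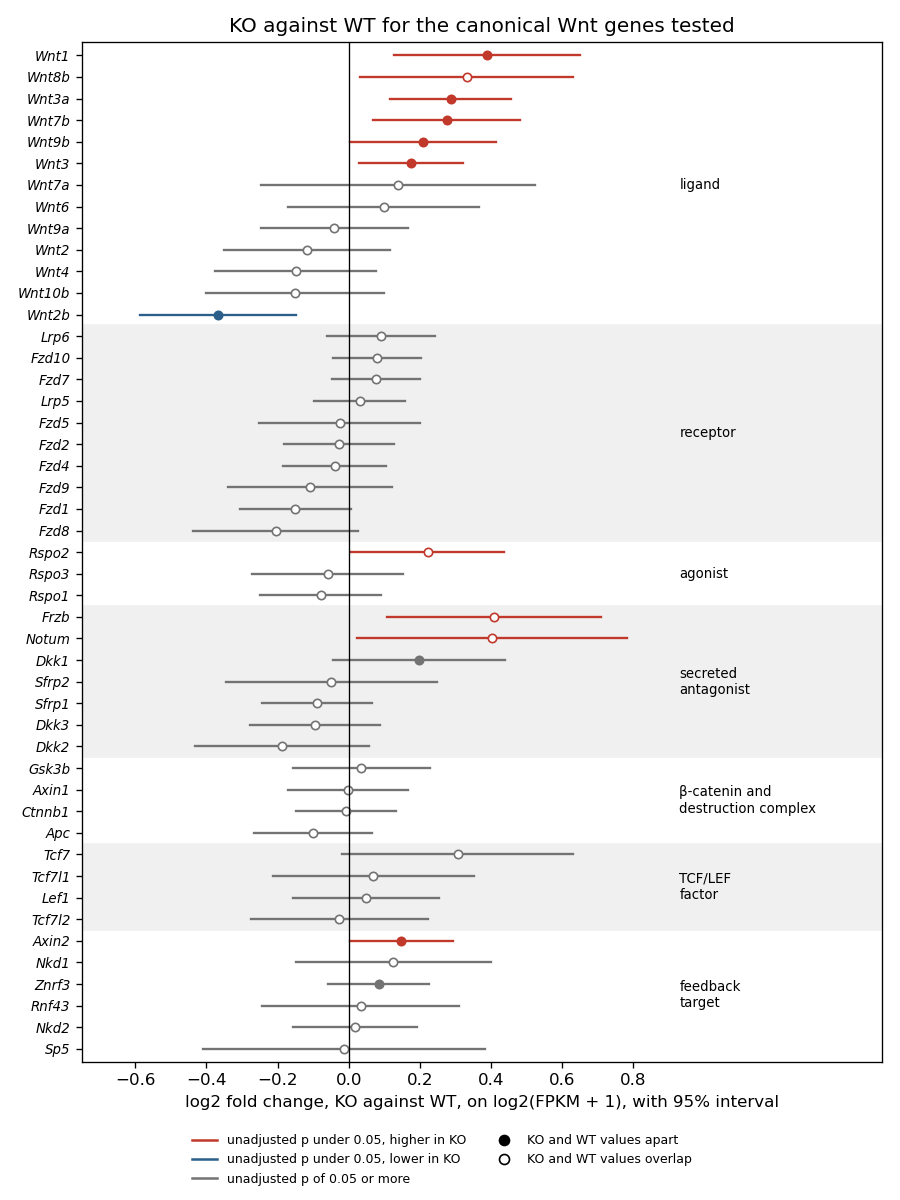
Log2 fold change (KO against WT) with its 95% interval for the 47 members tested, by role, on log2(FPKM + 1). Colour marks an unadjusted p under 0.05, and filled points mark members whose KO and WT values did not overlap. The coloured intervals sit mainly among the ligands, with 6 to the right of 0 and 1, Wnt2b, to the left, while the receptor intervals all cross 0.

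Of the ligands, Wnt1 had the largest difference. Wnt1, a ligand of the dorsal midline and the midbrain-hindbrain boundary (chr15:98789857-98793837, GRCm38, plus strand), was at 1.80, 1.37 and 1.93 FPKM in KO embryos and at 0.983, 0.965, 0.975 and 1.32 FPKM in WT embryos. The lowest KO value lay just above that of the WT embryo KOAC10-2, which was far above the other WT embryos. The KO mean was 161% of the WT mean (log2 fold change 0.39 ± 0.11 SE, unadjusted p = 0.00968, adjusted p = 0.321). On a scale of log2(FPKM + 1), fold changes of genes near 1 FPKM are understated.

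Wnt3a, a ligand of the dorsal neural tube and tail bud, had the lowest unadjusted p of the members, with Wnt2b (chr11:59248033-59290752, minus strand). Its level was 2.22, 2.00 and 2.23 FPKM in KO embryos and 1.64, 1.56, 1.52 and 1.63 FPKM in WT embryos. All KO values were above all WT values by a gap larger than the whole WT range (log2 fold change 0.29 ± 0.07 SE, unadjusted p = 0.00520, adjusted p = 0.286). The tail bud markers, of which 5 of 8 were listed in the table, summed to 2.59 to 3.25 FPKM in KO embryos and 2.47 to 3.12 FPKM in WT embryos. These ranges overlapped, but only T reached a mean of 1 FPKM, and the tail had been removed from every embryo. The part of these markers in the Wnt3a values was not tested.

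Wnt7b is a ligand of the nervous system and of embryonic epithelia (chr15:85535437-85582473, minus strand). It was at 24.6, 26.5 and 25.4 FPKM in KO embryos and at 19.8, 21.1, 18.8 and 24.3 FPKM in WT embryos. The genotypes were apart, but KOAC10-2 reached almost to the lowest KO embryo (log2 fold change 0.28 ± 0.09 SE, unadjusted p = 0.0162, adjusted p = 0.354). Of its exon bases, 324 are shared with AU022754 on the opposite strand, and 9 of the 51 members share exon bases with another gene. The libraries did not mark strand, so reads from shared bases cannot be told apart. The summed level of the 15 ligands was 65.1 to 65.7 FPKM in KO embryos and 56.8 to 60.5 FPKM in WT embryos. Wnt7b made up 68.6% of the difference of 6.59 FPKM between the means, and the other 14 ligands summed to 39.2 to 41.1 FPKM in KO and 36.3 to 39.5 FPKM in WT embryos, which overlapped.

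Wnt3 and Wnt9b are divergent neighbours on chromosome 11, their starts 24.3 kb apart. Wnt3, a ligand of the limb ectoderm and the dorsal neural tube, was at 3.66, 3.73 and 3.68 FPKM in KO embryos, a narrow range, and at 3.24, 3.15, 3.20 and 3.02 FPKM in WT embryos. Its log2 fold change was 0.18 ± 0.06 SE (unadjusted p = 0.0248, adjusted p = 0.384). Wnt9b, a ligand of the nephric duct that acts in kidney induction, was at 1.56, 1.58 and 1.88 FPKM in KO and at 1.28, 1.46, 1.16 and 1.34 FPKM in WT embryos. Both genes were higher in all 3 KO embryos than in any WT embryo, though the unadjusted p of Wnt9b was near the threshold (log2 fold change 0.21 ± 0.09 SE, unadjusted p = 0.0465, adjusted p = 0.429). It was no longer under 0.05 in 15 of 19 alternative settings, nor was that of Wnt3 in 8 of 19. The nephric duct and mesonephros markers summed to 38.7 to 42.5 FPKM in KO and 35.5 to 40.9 FPKM in WT embryos, which overlapped. Of these markers, 3 had a log2 fold change above 0 and 3 below. Wt1 was lower in KO embryos with overlap (log2 fold change -0.44, unadjusted p = 0.0483, adjusted p = 0.432).

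Wnt8b, a ligand of the forebrain midline, was at 3.36, 4.33 and 4.80 FPKM in KO embryos and at 2.89, 2.79, 2.94 and 3.75 FPKM in WT embryos. KOAC10-2 again stood above the other WT embryos, and above the KO embryo KOAC8-6, so that the genotypes overlapped (log2 fold change 0.33 ± 0.13 SE, unadjusted p = 0.0342, adjusted p = 0.403). The unadjusted p was no longer under 0.05 in 7 of 19 alternative settings. The 6 forebrain markers summed to 76.6 to 99.9 FPKM in KO and 78.7 to 99.3 FPKM in WT embryos.

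Wnt2b was the only ligand tested that was lower in KO embryos at an unadjusted p under 0.05 (chr3:104945272-104961921, minus strand). This ligand, known from the dorsal midline of the brain, the eye margin and the mesoderm beside the foregut, was at 2.14, 1.58 and 1.65 FPKM in KO and at 2.52, 2.79, 2.57 and 2.48 FPKM in WT embryos. All KO values were below all WT values, and the KO mean was 69.2% of the WT mean (log2 fold change -0.37 ± 0.09 SE, unadjusted p = 0.00520, adjusted p = 0.286). Its unadjusted p stayed under 0.05 in all 19 alternative settings that gave a value.

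Wnt6, a ligand of the surface ectoderm and the second most abundant ligand, was at 7.19, 8.35 and 8.27 FPKM in KO and at 6.92, 8.82, 7.61 and 6.22 FPKM in WT embryos. The WT embryos enclosed the KO embryos (log2 fold change 0.10, 95% interval -0.17 to 0.37), and with 1 embryo left out the log2 fold change ran from 0.03 without KOAC10-2 to 0.18 without KOAC10-7. The remaining 5 ligands tested (Wnt2, Wnt4, Wnt7a, Wnt9a and Wnt10b) had overlapping genotypes and log2 fold changes from -0.15 to 0.14. The neighbours of Wnt1 and Wnt3a had fold changes below 0, with intervals that cross it. Wnt10b lies 11.7 kb from Wnt1 in the opposite orientation, and its log2 fold change was -0.15 ± 0.11 SE. Wnt9a lies 16.2 kb from Wnt3a, also in the opposite orientation, with a log2 fold change of -0.04 ± 0.09 SE.

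**Figure D3:**
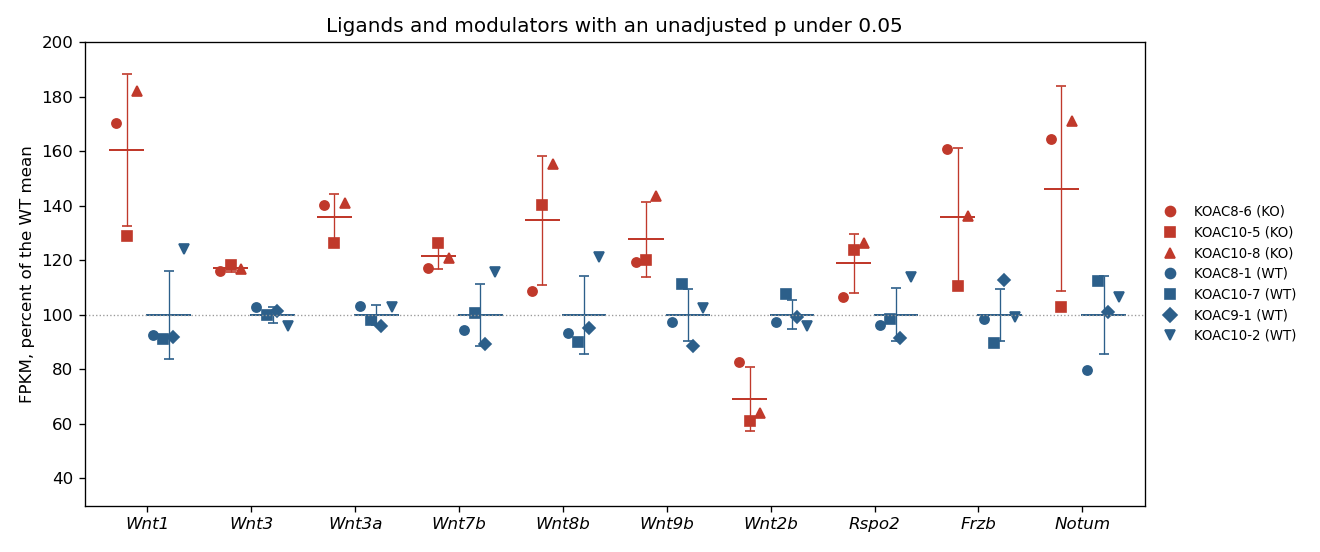
FPKM in each embryo as a percent of the WT mean for the 7 ligands and 3 modulators with an unadjusted p under 0.05 (red, KO; blue, WT; marker shapes give the embryo; bars give the mean and SD). Wnt1, Wnt3, Wnt3a, Wnt7b and Wnt9b show every KO point above every WT point and Wnt2b every KO point below, while Wnt8b, Rspo2, Frzb and Notum overlap.

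The 4 members with a mean under 1 FPKM were not in the fit. Wnt16 was at 0.947, 0.576 and 0.718 FPKM in KO embryos and at 1.03, 0.975, 1.04 and 1.01 FPKM in WT embryos, every KO value below every WT value. Sfrp4, a secreted Frizzled-related antagonist, was at 0.731, 0.713 and 0.664 FPKM in KO and at 0.581, 0.467, 0.532 and 0.413 FPKM in WT embryos, every KO value above every WT value. For both, a two-sided exact permutation test over the 35 splits of the embryos gave p = 0.0286, the smallest p it can give, unadjusted for the 4 genes tested this way. It adds little to the lack of overlap, which already places the embryos at an extreme split. With no filter on low values, every KO value was above every WT value for 4.68% of all genes and below for 5.43%. Wnt10a and Sfrp5 overlapped between genotypes (exact permutation p = 0.943 and 0.171). These are the members with the fewest fragments per length of transcript.

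No receptor differed between genotypes at an unadjusted p under 0.05, and the values of all 10 overlapped. Fzd2, the most abundant Frizzled, was at 37.5, 44.5 and 40.0 FPKM in KO and at 40.7, 40.5, 41.0 and 43.4 FPKM in WT embryos (log2 fold change -0.03, 95% interval -0.18 to 0.13). The co-receptor Lrp6 was at 24.0, 24.2 and 23.5 FPKM in KO and at 22.5, 24.6, 20.6 and 21.9 FPKM in WT embryos (log2 fold change 0.09, 95% interval -0.06 to 0.24). Fzd8 and Fzd1 had the lowest fold changes (log2 -0.20 and -0.15, unadjusted p = 0.0755 and 0.0573). The 95% intervals of the 10 receptors lay between -0.44 and 0.24 on the scale of log2(FPKM + 1). For low receptors such as Fzd5, with a mean of 1.36 FPKM, this scale understates differences in transcript.

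R-spondins strengthen Wnt signals by protecting Frizzled receptors from removal at the cell surface. Rspo2, known from the apical ridge of the limb and from the nervous system, was at 7.76, 9.03 and 9.20 FPKM in KO and at 7.01, 7.18, 6.66 and 8.31 FPKM in WT embryos. The KO embryo KOAC8-6 lay below the WT embryo KOAC10-2 (log2 fold change 0.22 ± 0.09 SE, unadjusted p = 0.0449, adjusted p = 0.425), and the unadjusted p was no longer under 0.05 in 12 of 20 alternative settings. Rspo1, the most abundant of the 3, was at 12.3, 13.5 and 14.7 FPKM in KO and at 13.4, 14.8, 14.4 and 14.6 FPKM in WT embryos. Rspo1 and Rspo3 overlapped between genotypes (log2 fold change -0.08 ± 0.07 and -0.06 ± 0.09 SE).

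Among the secreted antagonists, Frzb and Notum had an unadjusted p under 0.05 with the higher mean in KO embryos, and in both the genotypes overlapped. Frzb, a Frizzled-related protein that binds Wnts and is known from cartilage and limb mesenchyme (chr2:80411970-80447625, minus strand), was at 23.0, 15.8 and 19.5 FPKM in KO and at 14.1, 12.8, 16.1 and 14.2 FPKM in WT embryos. KOAC10-5 lay just below the WT embryo KOAC9-1, and the other KO embryos were above all WT embryos (log2 fold change 0.41 ± 0.13 SE, unadjusted p = 0.0149, adjusted p = 0.353). The 4 markers of cartilage and sclerotome summed to 186 to 193 FPKM in KO and 196 to 226 FPKM in WT embryos, lower in every KO embryo. Most of this sum was Col2a1, at 133 to 147 FPKM in KO and 152 to 174 FPKM in WT embryos. The log2 fold change was -0.22 for Col2a1 and -0.33 for Pax1, but 0.02 for Pax9 and 0.07 for Sox9. Markers of limb mesenchyme summed to 78.2 to 88.4 FPKM in KO and 73.6 to 90.5 FPKM in WT embryos.

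Notum, an enzyme that strips Wnt proteins of their lipid, was at 4.40, 2.75 and 4.57 FPKM in KO embryos and at 2.13, 3.01, 2.70 and 2.85 FPKM in WT embryos. KOAC10-5 lay within the WT range, and KOAC8-6 and KOAC10-8 lay well above it (log2 fold change 0.40 ± 0.16 SE, unadjusted p = 0.0405, adjusted p = 0.420), and the unadjusted p was no longer under 0.05 in 9 of 19 alternative settings. Its exons share 708 bases with Notumos on the opposite strand. Reads of the 2 genes from these bases cannot be told apart, as the libraries did not mark strand. Dkk1, which blocks LRP5 and LRP6, was at 3.23, 3.24 and 4.06 FPKM in KO and at 2.47, 3.06, 3.17 and 3.00 FPKM in WT embryos. The genotypes were apart by a narrow margin, and KOAC10-8 was the highest (log2 fold change 0.20 ± 0.10 SE, unadjusted p = 0.0960). Without KOAC10-8 its log2 fold change was 0.11.

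Sfrp1 and Sfrp2, the abundant antagonists, overlapped between genotypes. Sfrp2 was at 50.9, 62.6 and 67.1 FPKM in KO and at 53.0, 60.3, 71.8 and 63.9 FPKM in WT embryos, and Sfrp1 at 38.9, 40.6 and 45.3 FPKM in KO and at 42.5, 44.1, 47.0 and 43.5 FPKM in WT embryos. Their log2 fold changes were -0.05 ± 0.13 and -0.09 ± 0.07 SE, and those of Dkk2 and Dkk3 were -0.19 ± 0.10 and -0.09 ± 0.08 SE. Without KOAC10-8, the highest KO embryo for Sfrp1, its log2 fold change was -0.15 (unadjusted p = 0.0370).

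Transcripts of β-catenin and its destruction complex overlapped between genotypes, with small fold changes. Ctnnb1 was at 522, 548 and 498 FPKM in KO and at 522, 544, 498 and 537 FPKM in WT embryos (log2 fold change -0.01, 95% interval -0.15 to 0.13). The kinase gene Gsk3b was at 46.3, 43.0 and 37.1 FPKM in KO and at 42.3, 43.0, 38.3 and 40.3 FPKM in WT embryos. Over Ctnnb1, Axin1, Apc and Gsk3b the 95% intervals lay between -0.27 and 0.23. These values are of RNA and say nothing of β-catenin protein or its phosphorylation.

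The TCF/LEF factors also overlapped between genotypes. Lef1, itself a target of the pathway, was at 13.9, 16.7 and 16.9 FPKM in KO and at 14.2, 14.9, 15.3 and 16.8 FPKM in WT embryos (log2 fold change 0.05, 95% interval -0.16 to 0.25). Tcf7 was at 7.09, 5.88 and 9.47 FPKM in KO and at 5.96, 5.76, 5.97 and 5.33 FPKM in WT embryos, so KOAC8-6 and KOAC10-8 were above all WT embryos and KOAC10-5 was not (log2 fold change 0.31 ± 0.14 SE, unadjusted p = 0.0603). The repressor Tcf7l1 was at 21.2, 22.2 and 28.6 FPKM in KO and at 20.6, 22.5, 26.1 and 21.6 FPKM in WT embryos. Tcf7l2 was at 20.0, 27.3 and 23.5 FPKM in KO and at 22.1, 23.2, 24.6 and 25.7 FPKM in WT embryos, with the lowest and the highest of the 7 values both in KO embryos.

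Feedback targets are read as a transcript measure of the pathway's output. Axin2, a scaffold of the destruction complex that β-catenin induces (chr11:108920349-108950783, plus strand), was at 28.8, 28.6 and 32.9 FPKM in KO and at 26.9, 27.1, 26.2 and 27.9 FPKM in WT embryos. All KO values were above all WT values, 2 of them by less than 1 FPKM, and KOAC10-8 was the highest. The KO mean was 111% of the WT mean (log2 fold change 0.15 ± 0.06 SE, unadjusted p = 0.0462, adjusted p = 0.428), and without KOAC10-8 the log2 fold change was 0.08. The unadjusted p was no longer under 0.05 in 10 of 20 alternative settings, and 209 bases of its exons are shared with a gene on the opposite strand. Znrf3, a ubiquitin ligase that removes Frizzled receptors, was at 5.02, 4.80 and 4.67 FPKM in KO and at 4.61, 4.43, 4.39 and 4.57 FPKM in WT embryos, also without overlap (log2 fold change 0.08 ± 0.06 SE, unadjusted p = 0.203).

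The other 4 feedback targets overlapped between genotypes. Nkd1, which binds Dishevelled, was at 30.6, 32.7 and 43.1 FPKM in KO and at 30.3, 31.1, 34.3 and 32.7 FPKM in WT embryos, with KOAC10-8 alone above the WT range. Its relative Nkd2 was at 11.5, 11.7 and 11.2 FPKM in KO and at 11.1, 11.2, 12.7 and 10.3 FPKM in WT embryos. Rnf43, the partner of Znrf3, was at 1.66, 1.83 and 1.65 FPKM in KO and at 1.92, 1.29, 2.01 and 1.45 FPKM in WT embryos. Of the 6 targets, the widest interval was that of Sp5, a transcriptional repressor induced by Wnt, at 1.44, 1.72 and 2.52 FPKM in KO and at 1.33, 1.95, 1.99 and 2.37 FPKM in WT embryos (log2 fold change -0.01, 95% interval -0.41 to 0.38).

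**Figure D4:**
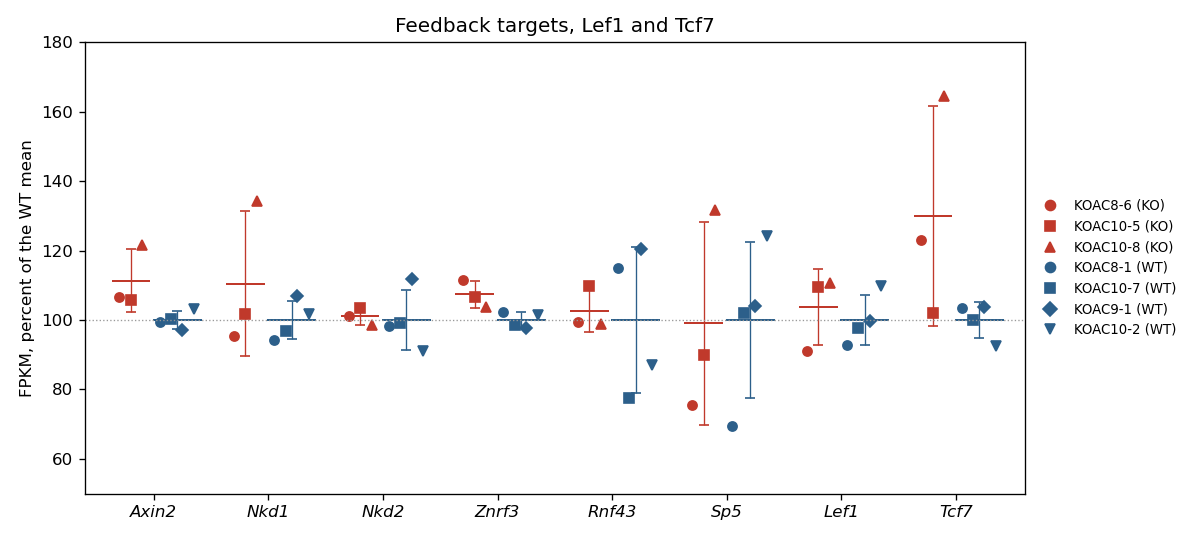
FPKM in each embryo as a percent of the WT mean for the 6 feedback targets, Lef1 and Tcf7 (red, KO; blue, WT; marker shapes give the embryo; bars give the mean and SD). KOAC10-8 is the highest point for Axin2, Nkd1, Sp5, Lef1 and Tcf7, and only Axin2 and Znrf3 have all KO points above all WT points.

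The stretches of 250 bases before the transcription start were searched for words that TCF/LEF factors are known to bind, on both strands. The words were CTTTGAA as the first, CTTTGAT as the next, CTTTGTA after that and CTTTGTT as the last. RefSeq promoters (GRCm38.p6) were matched for 36 of the 51 members, with 43 starts in all. A word was found for 5 members (Fzd7, Sp5, Lef1, Dkk1 and Tcf7l2). For Lef1 and Tcf7l2 it lay only at a start inside the gene, and not at their first start. Of the 43 starts, 5 held a word (11.6%), against 14.84% of all 32851 promoters and 10.49% of those of genes tested. Sp5 and Dkk1 held 2 words each, which was the case for 4.651% of the members' starts, 1.428% of all promoters and 0.808% of those of genes tested. Sp5 is shown as the feedback target with 2 words, and Axin2 and Wnt1 as the target and the ligand whose levels were described above and in whose stretch none of the 4 words was found. Capitals mark the words.
Sp5, chr2:70474673-70474922, plus strand: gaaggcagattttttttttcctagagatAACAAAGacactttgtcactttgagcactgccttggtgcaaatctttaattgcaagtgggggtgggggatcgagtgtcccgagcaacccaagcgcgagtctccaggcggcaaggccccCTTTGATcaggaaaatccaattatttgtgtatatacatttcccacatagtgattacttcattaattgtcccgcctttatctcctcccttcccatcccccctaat
Axin2, chr11:108920099-108920348, plus strand: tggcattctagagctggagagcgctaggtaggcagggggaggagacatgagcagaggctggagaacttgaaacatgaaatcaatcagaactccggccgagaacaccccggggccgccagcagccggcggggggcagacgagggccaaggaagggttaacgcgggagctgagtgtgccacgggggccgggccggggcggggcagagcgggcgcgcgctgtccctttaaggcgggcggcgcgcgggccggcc
Wnt1, chr15:98789607-98789856, plus strand: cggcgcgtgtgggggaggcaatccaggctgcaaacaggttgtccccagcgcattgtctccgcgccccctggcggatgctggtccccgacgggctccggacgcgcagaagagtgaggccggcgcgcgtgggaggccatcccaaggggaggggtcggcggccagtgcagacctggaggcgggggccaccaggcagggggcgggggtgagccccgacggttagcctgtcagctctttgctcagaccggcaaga
In Sp5 the word AACAAAG, which reads CTTTGTT on the other strand, began 222 bases before the start, and CTTTGAT began 104 bases before it. A match is a description of the letters only, and enhancers farther away were not searched.

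Other genes of the pathway were taken from a list of 56, of which 49 were tested. At an unadjusted p under 0.05, 0 were higher in KO embryos, against 5.27% of all genes tested, and 4 were lower (8.16%), against 6.19%. In either direction 11.5% of all genes tested passed. Their median log2 fold change was -0.01. Of the 4, 3 were co-receptors or receptors. Adgra2 and Reck, which together form the co-receptor for Wnt7a and Wnt7b on brain endothelium, were at 27.4, 25.6 and 25.3 FPKM and at 14.2, 11.5 and 12.8 FPKM in KO embryos. In WT embryos Adgra2 was at 30.1, 30.5, 29.2 and 30.4 FPKM and Reck at 15.2, 14.8, 14.5 and 15.2 FPKM. Both were lower in every KO embryo (log2 fold change -0.20 ± 0.05 and -0.21 ± 0.07 SE, unadjusted p = 0.00416 and 0.0229, adjusted p = 0.286 and 0.372). The 6 endothelial markers summed to 88.055 to 95.1 FPKM in KO and 83.0 to 88.032 FPKM in WT embryos, so KOAC10-5 and KOAC9-1 were barely apart. Pecam1, Kdr and Tek were higher in every KO embryo, and Cdh5, Tie1 and Emcn overlapped between genotypes.

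Kremen2, a receptor for Dkk1, was lower with overlap (log2 fold change -0.48 ± 0.17 SE, unadjusted p = 0.0255, adjusted p = 0.385), at 3.31 to 5.58 FPKM in KO and 5.21 to 7.67 FPKM in WT embryos. Bcl9l, a coactivator of β-catenin, was at 15.7 to 17.4 FPKM in KO and 18.2 to 20.0 FPKM in WT embryos (log2 fold change -0.17 ± 0.06 SE, unadjusted p = 0.0190, adjusted p = 0.361). The 2 genes that every Wnt needs for secretion, Porcn and Wls, had adjusted p of 0.999 and 0.582. Ccnd1 and Myc, widely used as targets, had log2 fold changes of 0.12 ± 0.08 and -0.01 ± 0.17 SE. Genes of this list with a mean under 1 FPKM were not in the fit. Of these, the antagonist Sost was at 1.14, 1.12 and 1.47 FPKM in KO and 0.419 to 0.755 FPKM in WT embryos, without overlap. Cer1 was at 0.0436 to 0.0841 FPKM in KO and 0.0976 to 0.145 FPKM in WT embryos, also without overlap. Wnt8a, Rspo4, Lgr6, Dkk4 and Cdx1 overlapped. With no filter on low values, 6 of the 56 had an unadjusted p under 0.05, where 9.84% of all genes did.

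In whole embryos, fewer cells of a type and less RNA per cell cannot be told apart, so markers were set beside the members. The 7 neural progenitor markers summed to 661 to 740 FPKM in KO and 598 to 683 FPKM in WT embryos. Of them, 6 were higher in KO embryos at an unadjusted p under 0.05, the list's median log2 fold change was 0.44, and none was at 0. Pax6 was at 25.9, 31.7 and 34.3 FPKM in KO and at 21.1, 19.5, 20.8 and 23.8 FPKM in WT embryos. The WT embryo KOAC10-2 was the highest WT embryo for Sox2, Sox1, Sox3, Pax6, Nes and Hes5, and not for Fabp7. It was the highest WT embryo for 11 of the 51 members, among them 5 of the 10 that were higher in KO embryos (Wnt1, Wnt7b, Wnt8b, Rspo2 and Axin2) and not Wnt3, Wnt3a, Wnt9b, Frzb or Notum. The same embryo was the highest WT embryo for 4 of 5 heart markers and 5 of 6 forebrain markers. This held too for 5 of 5 apical ridge and 4 of 5 tail bud markers. It also held for 3 of 4 erythroid and 3 of 4 cartilage and sclerotome markers, whose sums went the other way. The erythroid markers summed to 14144 to 18913 FPKM in KO and 20447 to 25567 FPKM in WT embryos, and the cartilage sums are given above. Of the erythroid markers, Hbb-y and Hba-a1 were lower in every KO embryo (log2 fold change -0.57 and -0.86). Hba-x and Hbb-bh1 overlapped between genotypes (-0.12 and 0.51). Among the remaining lists, KOAC10-2 was highest for 0 of the liver, skeletal muscle and surface ectoderm markers and for up to 4 of 6 nephric duct and mesonephros markers. The heart markers summed to 324 to 441 FPKM in KO and 278 to 328 FPKM in WT embryos, with 3 of 5 higher at an unadjusted p under 0.05 and a median log2 fold change of 0.26.

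Fgf8, a marker of both the midbrain-hindbrain boundary and the limb apical ridge, was at 5.11, 4.64 and 7.76 FPKM in KO and at 3.10, 3.25, 2.21 and 3.92 FPKM in WT embryos. The 5 boundary markers summed to 23.8 to 30.6 FPKM in KO and 21.4 to 25.2 FPKM in WT embryos, with 1 of 5 higher at an unadjusted p under 0.05. The 5 apical ridge markers summed to 24.0 to 36.6 FPKM in KO and 22.1 to 29.8 FPKM in WT embryos, with 2 of 5 higher, Fgf8 and Sp8. The roof plate markers went the other way in sum (79.0 to 93.8 against 93.7 to 109.6 FPKM), through Ttr, which was at 14.4 to 15.3 FPKM in KO and 32.3 to 53.1 FPKM in WT embryos. Skeletal muscle markers summed to 47.9 to 82.8 FPKM in KO and 125 to 194 FPKM in WT embryos. The part of these cell types in the Wnt values was not tested.

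**Figure D5:**
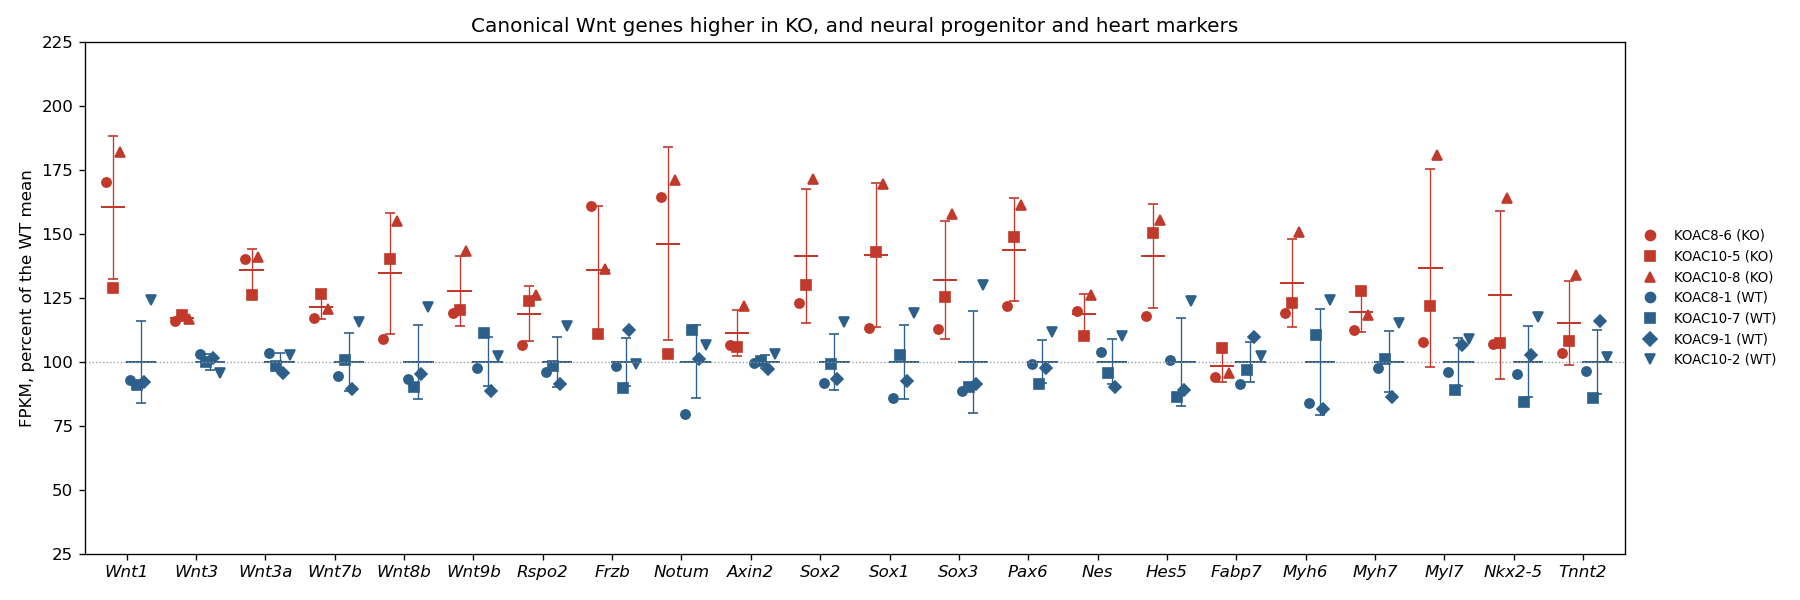
FPKM in each embryo as a percent of the WT mean for the 10 members higher in KO at an unadjusted p under 0.05, the 7 neural progenitor markers (Sox2 to Fabp7) and the 5 heart markers (Myh6 to Tnnt2), chosen for display after their values were seen (red, KO; blue, WT; marker shapes give the embryo; bars give the mean and SD). KOAC10-2 is the highest WT point for 5 of the 10 members, 6 of the 7 neural progenitor markers and 4 of the 5 heart markers.

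Over the 51 members, single embryos differed in how often they lay at the edge. KOAC10-8 had the highest of the 7 values for 15 members and the lowest for 10, and KOAC9-1 the highest for 14 and the lowest for 7. KOAC8-1 and KOAC10-2 had the highest value for none. The median difference of the members tested from the WT mean was 0.0048 (KOAC8-6), 0.04 (KOAC10-5) and 0.04 (KOAC10-8) in KO embryos and -0.04, -0.01, 0.04 and 0.02 in WT embryos, on the log2 scale, and the genotypes overlapped.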

How the data were processed

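RNA of 7 whole E11.5 embryos (3 KO, 4 WT by the labels) was sequenced from TruSeq RNA v2 libraries, which do not mark strand. The deposited values are FPKM, 1 per gene and embryo, made by the authors. The submitters' processing notes name Salmon, DESeq2, MultiQC and GRCm38 without versions, and the annotation release is not given in the sources used here. Beside the FPKM values the table holds the authors' own KO against WT comparison (mean signal, fold change, standard error and p-values), which was not used. All 7 FPKM columns were mapped to an embryo, and 0 were left unmapped. Counts were not used here, and relative depth came from the steps between low FPKM values.

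The 16095 genes whose mean reached 1 FPKM were tested by limma 3.58.1 in R 4.3.3 (lmFit, eBayes with a trend) on log2(FPKM + 1), with no covariate, and Benjamini-Hochberg adjustment ran over all of them. The log2 scale with a pseudocount of 1 understates differences of low genes. The fit was tested on simulated data. Values per embryo are given for the feedback targets and Lef1, for members with an unadjusted p under 0.05 or without overlap, and for the 2 most abundant members of each role. Tcf7, Dkk1's value without KOAC10-8, Sost, Cer1 and the markers plotted beside Wnt1, Wnt7b, Wnt8b and Rspo2 were added after their values were seen. The members and lists were chosen with earlier results of these data known. Positions are from GENCODE M21 (GRCm38) and promoter sequences from RefSeq (GRCm38.p6).

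The fit was repeated with the following alternatives: a pseudocount of 0.1 or 0.01, a minimum mean of 5 FPKM or none, scaling by a common sum or by median-ratio size factors, quantile normalization, and the KOAC number as a block. Xist and Afp each served as a covariate, the variance model was made robust or given weights per embryo, and the KOAC10 embryos were fitted alone. Each embryo was left out in turn.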

Additional observations from a re-analysis of the deposited data

Results flagged for a closer look

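In the WT group, 1 embryo lay far from the other 3 for 2 of the 51 members, judged by Dixon's ratio of the gap to the nearest value over the whole range. For Wnt1 the ratio was 0.949, with KOAC10-2 at 1.32 FPKM and the other WT embryos at 0.965 to 0.983 FPKM. For Wnt8b the ratio was 0.840, with KOAC10-2 at 3.75 FPKM and the others at 2.79 to 2.94 FPKM. Of 51 such groups, 2.55 would be expected to pass by chance at 1 in 20. Without KOAC10-2 the log2 fold change was 0.45 for Wnt1 and 0.41 for Wnt8b.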

How the results depend on the processing

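No member had an adjusted p under 0.05 in any of the 20 alternatives, and the median log2 fold change of the members tested stayed between 0.0078 and 0.05. The count of members higher at an unadjusted p under 0.05 (10) was 4 with a minimum mean of 5 FPKM (5.7% of all genes tested). It was 6 with the KOAC number as a block (4.04%) and 0 among the KOAC10 embryos alone (2.35%). The count lower (1) was 2 with no filter (5.35% of all genes tested) and 0 with the minimum of 5 FPKM (6.02%). It was 2 with embryo quality weights (7.26%) and 2 in the KOAC10 embryos (2.55%). The count with every KO value above every WT value (8) was 2 with the minimum of 5 FPKM (5.93% of all genes tested). It was 14 in the KOAC10 embryos. The count below (1) was 2 with no filter (5.43% of all genes tested) and 0 with the minimum of 5 FPKM (5.9%). It was 2 with a common sum (5.29%) and 5 in the KOAC10 embryos. The minimum of 5 FPKM left 30 members in the fit, and 2 against 2 embryos separate more easily (19.8% of all genes tested above and 17.4% below). For the rest the cause was not tested. Of the other pathway genes, 7 passed with Afp as a covariate, where 11.7% of all genes tested did. In the KOAC10 embryos 2 passed, where 4.9% of all genes tested did (4 and 11.5% in the report). Over all genes, the adjusted p passed for 10 with Afp and 13 in the KOAC10 embryos (6 in the report).

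Leaving out each embryo gave 5 to 7 members higher, 1 to 4 lower, 8 to 13 above and 1 to 8 below, where the shares of all genes tested were 3.31% to 7.81%, 4.24% to 8.55%, 7.06% to 14.7% and 7.31% to 13.7%. It gave 2 to 8 other pathway genes at an unadjusted p under 0.05, where 7.8% to 16.4% of all genes tested passed. Over the whole table, 7 to 12 genes had an adjusted p under 0.05. Without KOAC10-5 the counts were 4 lower (8.55% of all genes tested), 13 above (14.7%) and 8 below (13.7%). Of the other pathway genes 8 passed without that embryo, where 16.4% of all genes tested did. Without KOAC8-1, 4 members were below (8.98% of all genes tested), and 3 were without KOAC10-2 (8.07%). Over the whole table, 12 genes passed without KOAC8-1. The numbers of the embryos within a genotype were given in accession order. No paired analysis was possible because the labels give KO and WT embryos no shared replicate number, and the KOAC number, with 2 of 3 values found in both genotypes, was used as a block instead.

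Small log2 fold changes changed sign. With the KOAC number as a block these were Sfrp2 (0.022) and Sp5 (0.0031). With Afp they were Ctnnb1 (0.012), Tcf7l2 (0.0056), Rnf43 (-0.0053) and Sp5 (0.013), with quality weights Lef1 (-0.024), and in the KOAC10 embryos Fzd2 (0.0095), Sfrp2 (0.0605), Gsk3b (-0.058) and Tcf7l2 (0.049). With an embryo left out, the log2 fold change ran from -0.042 to 0.0265 for Ctnnb1, -0.092 to 0.028 for Fzd2, -0.034 to 0.12 for Gsk3b, -0.019 to 0.22 for Nkd1, -0.023 to 0.0685 for Nkd2, -0.036 to 0.095 for Rnf43, -0.13 to 0.065 for Sfrp2, -0.16 to 0.10 for Sp5, -0.059 to 0.15 for Tcf7l1 and -0.13 to 0.083 for Tcf7l2. Differences smaller than the interval half-widths, 0.12 to 0.40 on the log2 scale, could not be resolved with 3 and 4 embryos even without adjustment. Members near 1 FPKM have the fewest fragments per length.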
